A study of Mus musculus with 10 samples.

Results

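The comparison set tumors of mice given YH29407 together with an antibody against PD-1 (aPD-1) against tumors of control mice given neither agent. It was defined by treatment group alone and covered 5 of the 10 RNA-seq libraries of the series, 3 of the combination group (replicates 2, 3 and 4) and 2 of the control group (replicates 3 and 5). MC38, a mouse colon adenocarcinoma cell line, was grown under the skin of wild-type female C57BL/6 mice bought at 6 weeks of age. Combination mice received 100 mg/kg YH29407 B.I.D. and 10 mg/kg aPD-1 B.I.W., while the control mice are labelled as given neither agent. In the paper's combination experiment the control group received a vehicle. The remaining libraries came from tumors given aPD-1 alone (2) or YH29407 alone (3) at the same doses, and they entered the fit and the closing side-by-side values. All tumors were fixed in formalin and embedded in paraffin before RNA was extracted. The labels number the tumors without naming the animals, so p-values measure the spread between these libraries. The labelled cell type is colon cell, but of 19 epithelial carcinoma markers 5 were too low to test, among them Krt19, Cdx1 and Cdx2. Epcam, an epithelial adhesion molecule, was at 0.156 and 0.0998 counts scaled to the library total (CPM) in the control tumors and at 1.59, 0.337 and 0.773 CPM in the combination tumors.

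YH29407 inhibits IDO1, the enzyme that opens the indole ring of tryptophan and starts the kynurenine pathway. Kynurenine made by tumor and myeloid cells activates the aryl hydrocarbon receptor (AhR), and the loss of tryptophan together with AhR activity restrains T cells. PD-1 is a checkpoint receptor of activated T cells that dampens signals from the T cell receptor, and antibodies that block it release those cells. The comparison therefore asks which genes of T cells, antigen presentation, interferon signaling and the kynurenine pathway differed after both brakes had been targeted in a MC38 tumor.

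Library totals ranged from 56170804 to 76287659 counts, and 21523 of 45777 genes were tested. Combination replicate 4 stood apart from the other 9 libraries before any comparison was made. Transcripts of 13 mitochondrial genes took 2.28% of its counts, against 0.413% to 0.560% elsewhere, and predicted pseudogenes took 7.09%, against 3.04% to 3.70%. Spearman correlations of its counts with the other libraries had a median of 0.908, against 0.961 to 0.974 for the rest. Combination replicates 2 and 3 differed from the other libraries in another way, since they held keratinocyte genes at a summed level of 1410 and 326 CPM. In the other 8 libraries that sum was 15.1 to 71.5 CPM, and combination replicate 4 was at 30.5 CPM. Summed skeletal muscle genes reached 1340, 1470 and 868 CPM in the 3 combination tumors and 149 and 464 CPM in the control tumors. Tumors of this model lie between skin and muscle of the flank. Most lists of genes below are therefore given with the median over all 3 combination tumors, without replicate 4 and with replicate 4 alone. Over all genes tested these medians were 0.10, 0.01 and 0.13. The part that skin, muscle and library quality had in the results was not tested. In bulk RNA, fewer cells of a type and less RNA per cell cannot be told apart.

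**Figure D1:**
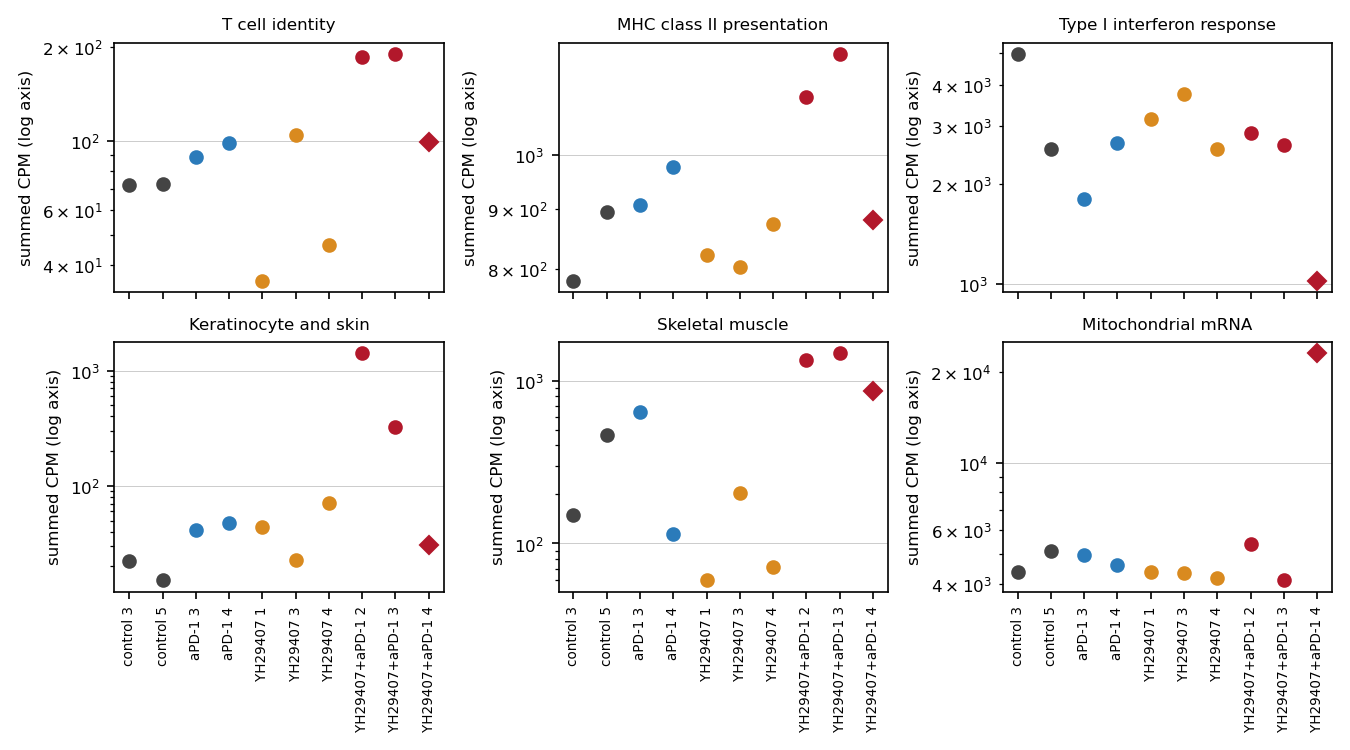
Summed CPM of the members of 6 gene lists in each of the 10 tumors, on log axes, with 1 point per tumor colored by group and combination replicate 4 drawn as a diamond. T cell identity genes were at 185 and 190 CPM in combination replicates 2 and 3 and at 99.4 CPM in replicate 4, against 72.3 and 72.5 CPM in the controls, whereas keratinocyte genes were high only in replicates 2 and 3 and mitochondrial mRNA only in replicate 4.

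No gene passed an adjusted p of 0.05 in edgeR's quasi-likelihood test of the combination against the control group (0% of 21523 genes). The smallest adjusted p was 0.0917. Genes with an unadjusted p under 0.05 in edgeR are called nominally higher or lower here. In the combination, 1502 genes (6.98%) were nominally higher and 672 (3.12%) nominally lower, and DESeq2 called 354 genes higher (1.69% of 20979) and 73 lower (0.348%) at an adjusted p under 0.05. Libraries did not overlap between the groups for 3356 genes that were higher (15.6%) and 3399 that were lower (15.8%). Without combination replicate 4, 1625 genes (7.86% of 20674) were nominally higher and 937 (4.53%) nominally lower. Of the 1502 higher genes, 985 (65.6%) were among those 1625, and of the 672 lower genes, 497 (74.0%) were among those 937. The smallest p belonged to Gm41396, a predicted gene with no count in either control tumor and 14.9, 12 and 44.1 CPM in the combination tumors, at least 554-fold higher over a floor of 3 counts per library. It was also at 10.1 to 14.2 CPM in the 5 tumors given 1 agent, so its absence set the controls apart from all treated tumors. Its adjusted p was 9.97e-04 in edgeR without combination replicate 4.

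A rule for follow-up asked for a change of at least 1 on the log2 scale, a mean of at least 1 CPM and no overlap of libraries. It left out predicted-gene, microRNA and pseudogene symbols. Without combination replicate 4 the same direction, an unadjusted p under 0.05 and a change of at least 1 were required. Of 21523 genes tested, 365 met the rule as higher and 87 as lower. The 12 of smallest p in each direction were followed up by tumor. Since those values chose them, they are a description. All 24 had an adjusted p under 0.05 in DESeq2, where the 12 higher genes ranged from 2.50e-10 to 2.80e-04 and the 12 lower genes from 2.35e-08 to 0.0155. In edgeR their adjusted p ran from 0.394 to 0.460.

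**Figure D2:**
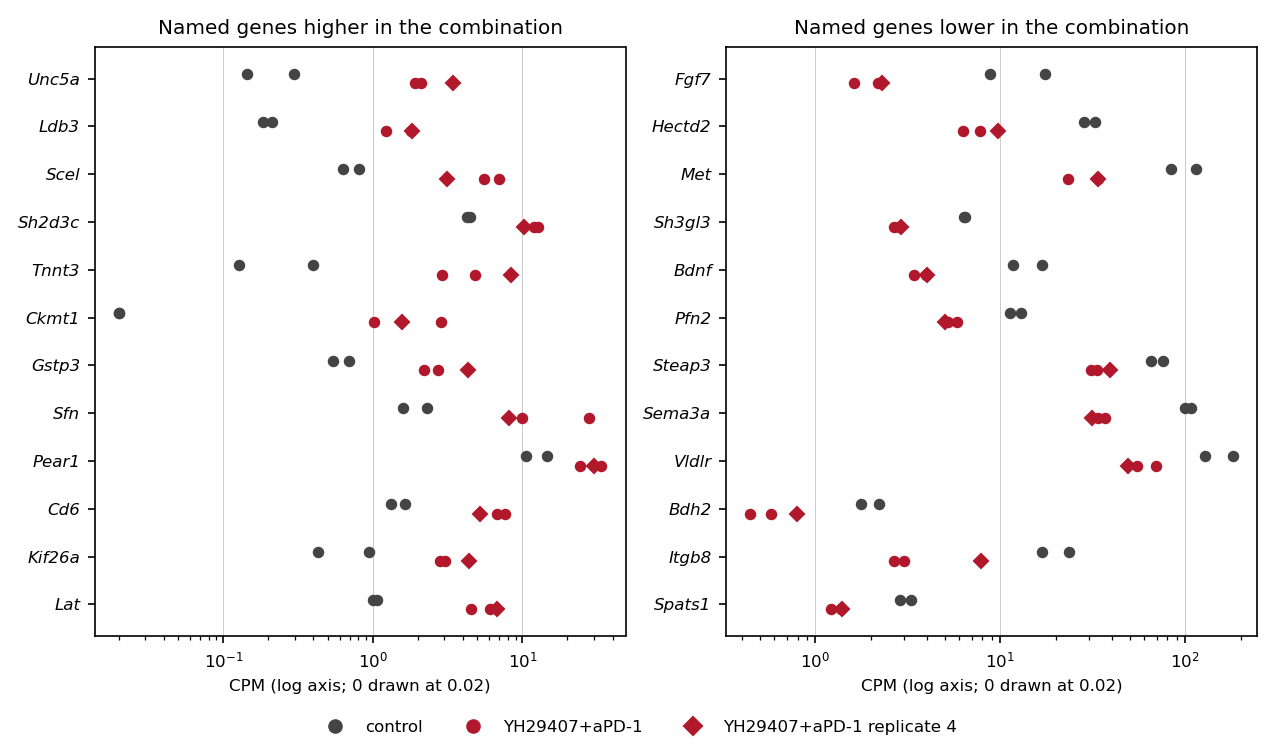
CPM on a log axis of the 12 higher and the 12 lower genes followed up, with 1 point per tumor for the 2 control tumors and the 3 combination tumors, where the diamond marks combination replicate 4 and 0 is drawn at 0.02. By the rule that chose them no gene overlaps between the groups, and Ckmt1 was at 0 in both controls.

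The genes that were higher came from several tissues. Lat, the membrane adaptor that couples the T cell receptor to downstream kinases (chromosome 7, 126363827 to 126369705, GRCm38.p6), was at 1.07 and 0.998 CPM in control replicates 3 and 5 and at 6.03, 4.56 and 6.78 CPM in combination replicates 2, 3 and 4. All 3 combination tumors were above both controls, by 2.49 ± 0.50 on the log2 scale (SE), and replicate 4 was the highest. Cd6, a co-receptor of T cells (chromosome 19, 10789339 to 10830062), was at 1.65 and 1.33 CPM in the control tumors and at 7.61, 6.79 and 5.20 CPM in the combination tumors, a log2 fold change of 2.13 ± 0.42. With replicate 4 as the only combination tumor the log2 fold changes were 2.60 for Lat and 1.69 for Cd6, where a level above both controls was a condition of the choice. Sh2d3c, an adaptor of adhesion and chemokine receptors in lymphoid and other cells, was at 4.49 and 4.26 CPM in the controls and at 12.7, 12 and 10.2 CPM in the combination, and its DESeq2 adjusted p of 2.50e-10 was the smallest of the 24.

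Other genes among the 12 encode proteins known from skin or muscle, and the source of their transcripts was not tested. Scel, which encodes the cornified envelope protein sciellin, went from 0.810 and 0.627 CPM in the controls to 6.99, 5.53 and 3.11 CPM in the combination. Sfn, the epithelial 14-3-3 protein, went from 2.29 and 1.58 CPM to 27.7, 9.95 and 8.13 CPM. As the rule required, both were above the controls in replicate 4 too, whose summed keratinocyte genes lay within the range of the other groups. Ldb3, a protein of the Z-disc of striated muscle, was at 0.213 and 0.185 CPM in the controls and at 1.81, 1.22 and 1.82 CPM in the combination. Tnnt3, troponin T of fast skeletal fibers, was at 0.128 and 0.399 CPM and at 4.85, 2.92 and 8.38 CPM. Unc5a, a netrin receptor of neurons, was at 0.298 and 0.143 CPM in the controls and at 2.11, 1.92 and 3.45 CPM in the combination tumors, 11.2-fold in the fit. Pear1, a receptor of platelets and endothelium, was 2.34-fold higher, and the mitochondrial creatine kinase gene Ckmt1, with no count in the controls, was at least 42.4-fold higher. The glutathione transferase gene Gstp3 was 4.98-fold higher and Kif26a, a kinesin family member, was 4.99-fold higher.

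The genes that were lower had varied roles. Fgf7, the keratinocyte growth factor made by stromal cells (chromosome 2, 126034658 to 126091185), was at 17.5 and 8.78 CPM in the control tumors and at 2.17, 1.61 and 2.28 CPM in the combination tumors. The log2 fold change of -2.70 ± 0.35 was a 6.49-fold lower level, with an edgeR adjusted p of 0.394 and a DESeq2 adjusted p of 2.35e-08. Met, the receptor of hepatocyte growth factor (chromosome 6, 17463349 to 17573980), was at 83.4 and 114 CPM in the controls and at 23.2, 33.6 and 33.6 CPM in the combination, a log2 fold change of -1.71 ± 0.29. Hectd2, which encodes a HECT domain ubiquitin ligase, was at 28.4 and 32.4 CPM and at 6.28, 7.76 and 9.67 CPM. As the rule required, all 3 combination tumors were below both controls for these genes. Itgb8, the integrin subunit that helps to activate TGF-beta, went from 16.8 and 23.6 CPM to 3.02, 2.67 and 7.86 CPM.

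The neurotrophin gene Bdnf was at 16.9 and 11.7 CPM in the controls and at 3.41, 3.98 and 4.01 CPM in the combination. Sema3a, a secreted semaphorin that repels axons and endothelial cells, was at 99.4 and 108 CPM and at 33.7, 36.6 and 31.3 CPM. The lipoprotein receptor gene Vldlr was at 128 and 181 CPM and at 55.1, 69.2 and 48.9 CPM, a 2.67-fold lower level. The endosomal iron reductase gene Steap3 was 2.04-fold lower, the endophilin gene Sh3gl3 2.29-fold lower, the actin-binding profilin gene Pfn2 2.27-fold lower, the ketone body dehydrogenase gene Bdh2 3.29-fold lower and Spats1 2.33-fold lower. Sh3gl3 was at 2.66, 2.83 and 2.90 CPM in the combination against 6.41 and 6.38 CPM in the controls. The rule that chose these genes favors such a small spread between tumors of a group.

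Genes that identify T cells had the highest median fold change of the immune gene lists. Of 26 T cell identity genes 11 (42.3%) were nominally higher and none nominally lower, beside 6.98% and 3.12% of all genes tested. Their median log2 fold change was 1.57, against 0.10 over all 21523 genes, and 25 of 26 were positive. DESeq2 called 6 of them higher, beside 1.69% of all genes. Cd3e, a signaling chain of the T cell receptor complex (chromosome 9, 44998735 to 45009663), was at 1.45 and 1.04 CPM in the controls and at 8.25, 7.87 and 4.12 CPM in the combination. Cd3d, another chain of that complex, was at 0.909 and 0.741 CPM in the controls and at 2.28, 3.35 and 1.51 CPM in the combination. Cd27, a costimulatory receptor of the TNF receptor family, went from 0.483 and 0.228 CPM to 1.95, 2.83 and 0.719 CPM. None of these 3 genes overlapped between the groups, and replicate 4 was the lowest combination tumor for each. The zeta chain gene Cd247 followed the same order, at 0.455 and 0.542 CPM in the controls and at 2.3, 2.38 and 1.15 CPM in the combination.

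Chains that mark the main T cell subsets followed with wider errors. Cd8a, the co-receptor of cytotoxic T cells, was at 1.86 and 1.80 CPM in the controls and at 10.8, 12.7 and 3.99 CPM in the combination, a log2 fold change of 2.33 ± 1.05. Cd4, the co-receptor of helper T cells, was at 1.01 and 0.855 CPM and at 3.24, 3.16 and 0.719 CPM, so that replicate 4 fell below both controls and the groups overlapped. Without replicate 4, 22 of the 26 T cell identity genes were nominally higher, beside 7.86% of all genes, and their median was 1.99. With replicate 4 alone as the combination group, their median was -0.07 and 12 of the 26 were positive. The keratinocyte sum was high in replicates 2 and 3, and the part of skin in the list's level was not tested.

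**Figure D3:**
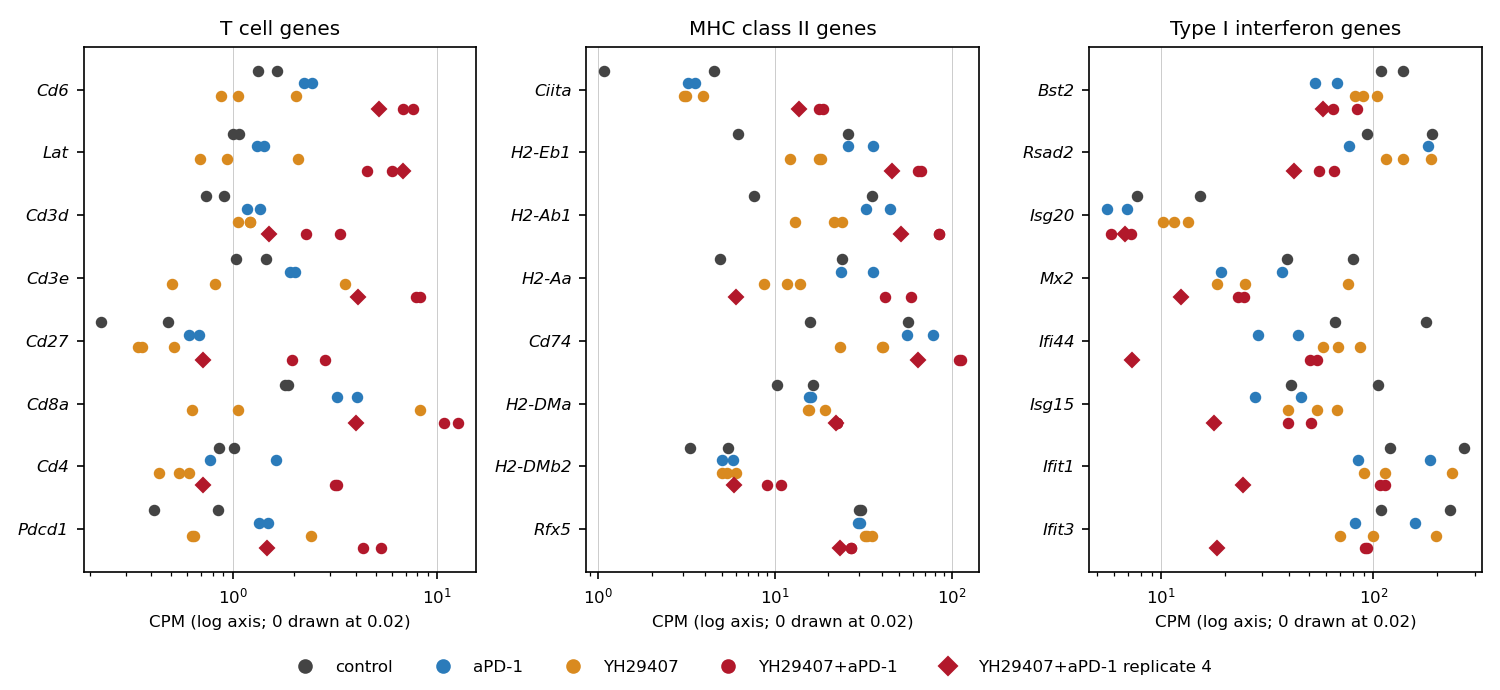
CPM on log axes of T cell, MHC class II and type I interferon genes, with 1 point per tumor in the control, aPD-1, YH29407 and combination groups, where the diamond marks combination replicate 4. Cd6, Lat, Ciita and H2-Eb1 lie above both controls in all 3 combination tumors, Cd4 and H2-Aa overlap through replicate 4, and Bst2 and Rsad2 lie below both controls.

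Downstream of the receptor, 8 of 37 T cell receptor signaling genes (21.6%) were nominally higher and 1 (2.70%) nominally lower, beside 6.98% and 3.12% of all genes. Their median was 0.36, with 0.43 without replicate 4 and -0.25 with it alone. Zap70, the kinase recruited to the phosphorylated receptor, was at 1.53 and 0.798 CPM in the controls and at 4.1, 4.6 and 2.72 CPM in the combination, without overlap. Lck, the kinase that starts the cascade, was at 4.23 and 3.53 CPM and at 13.8, 14.6 and 3.54 CPM, and replicate 4 lay between the controls. Nfatc1, a transcription factor released by calcium signals, differed little between tumors of a group, at 50.4 and 49.8 CPM in the controls and at 79.3, 78.2 and 81.2 CPM in the combination, and its log2 fold change was 0.67 ± 0.19 with a DESeq2 adjusted p of 0.0199. Its relative Nfatc2 was at 13.1 and 9.04 CPM and at 18.2, 18.4 and 15.2 CPM, a log2 fold change of 0.64 ± 0.32 with an edgeR adjusted p of 0.460. Pik3cd, the leukocyte phosphoinositide kinase, was at 22.6 and 14.5 CPM and at 32.7, 38.8 and 28.1 CPM. The lower gene was Ppp3cb, a catalytic subunit of calcineurin that is expressed in many tissues, at 103 and 116 CPM in the controls and at 67.9, 95.7 and 42.0 CPM in the combination.

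Effector molecules of cytotoxic lymphocytes were less uniform. Of 25 such genes 3 (12%) were nominally higher and none nominally lower, beside 6.98% and 3.12% of all genes. Their median was 0.52, with 0.76 without replicate 4 and -0.95 with it alone. Il2rb, a receptor chain for interleukin-2 and interleukin-15, was at 16.8 and 13.9 CPM in the controls and at 45.2, 50.6 and 41.6 CPM in the combination, a log2 fold change of 1.58 ± 0.40. Tbx21, the master transcription factor of type 1 responses, was at 0.810 and 0.713 CPM and at 3.15, 2.99 and 1.96 CPM. Nkg7, a protein of cytotoxic granules, was at 4.05 and 2.92 CPM and at 10.9, 11 and 8.13 CPM. These 3 did not overlap between the groups. The granzyme genes did overlap, because replicate 4 was low. Gzma was at 6.85 and 2.66 CPM in the controls and at 19.6, 35.0 and 0.647 CPM in the combination. Gzmb was at 30.8 and 20.3 CPM and at 38.5, 49.2 and 4.73 CPM, a log2 fold change of 0.27 ± 0.87. Ifng, the cytokine of activated T and NK cells, was at 0.796 and 0.328 CPM and at 1.05, 2.09 and 0.450 CPM. Without replicate 4, 8 of the 25 genes were nominally higher, beside 7.86% of all genes.

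Among 18 NK cell receptor genes 1 (5.56%) was nominally higher and 1 nominally lower, near the 6.98% and 3.12% of all genes. Their median was 0.61, with 1.12 without replicate 4 and -1.66 with it alone. Klrc2, which encodes an activating lectin-like receptor, was at 0.867 and 0.670 CPM in the controls and at 2, 3.77 and 0.773 CPM in the combination. Klra4, of the Ly49 family whose members resemble each other closely enough for reads to be shared, was at 35.6 and 31.1 CPM and at 9.12, 15.3 and 3.47 CPM. The lower level of Klra4 held in each of the 3 combination tumors. Without replicate 4, 10 NK cell receptor genes were nominally higher and 1 nominally lower, beside 7.86% and 4.53% of all genes.

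Inhibitory receptors were higher in the combination for some members. Of 20 checkpoint genes 5 (25.0%) were nominally higher and none nominally lower, beside 6.98% and 3.12% of all genes. Their median was 0.73, with 1.05 without replicate 4 and -1.52 with it alone. Pdcd1, which encodes the PD-1 receptor that aPD-1 binds (chromosome 1, 94038305 to 94052553), was at 0.852 and 0.413 CPM in the controls and at 4.33, 5.32 and 1.47 CPM in the combination, a log2 fold change of 2.55 ± 0.81 with a DESeq2 adjusted p of 0.0431. Lag3, a receptor for MHC class II molecules, was at 4.12 and 2.08 CPM and at 10, 9.01 and 6.82 CPM. Tigit, a receptor shared by T and NK cells, was at 1.72 and 2.12 CPM and at 3.64, 4.32 and 4.57 CPM. The groups did not overlap for these 3 receptors, and for Tigit replicate 4 was the highest tumor. Cd276, a ligand of the B7 family, was 2.15-fold higher and the V-domain receptor gene Vsir 1.68-fold higher. Cd274, the ligand of PD-1, overlapped at 47.0 and 24.5 CPM in the controls and 29.5, 27.8 and 5.45 CPM in the combination.

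Regulatory T cell genes gave 2 of 14 tested (14.3%) that were nominally higher and none nominally lower, beside 6.98% and 3.12% of all genes. Their median was 1.03, with 1.23 without replicate 4 and -0.55 with it alone. Izumo1r, the folate receptor 4 of regulatory T cells, was at 0.0426 and 0.157 CPM in the controls and at 1.09, 0.463 and 4.28 CPM in the combination. Ikzf4, which encodes the transcription factor Eos, was at 0.341 and 0.143 CPM and at 1, 1.35 and 0.575 CPM. Foxp3, the defining factor of the lineage, was at 2.90 and 1.03 CPM and at 6.56, 6.94 and 2.05 CPM, so replicate 4 lay between the controls. With replicate 4 left out, 7 of the tested genes were nominally higher, beside 7.86% of all genes.

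Several genes of MHC class II presentation were higher in the combination. These molecules display peptides to CD4+ T cells and are transcribed under the coactivator encoded by Ciita, which acts through factors bound at the X and Y boxes of their promoters. Of 16 genes tested 7 (43.8%) were nominally higher and none nominally lower, beside 6.98% and 3.12% of all genes. DESeq2 called 2 of the 16 higher, beside 1.69% of all genes. Their median was 0.89, with 0.54 without control replicate 3 and 1.22 without control replicate 5. Ciita (chromosome 16, 10480014 to 10531064) was at 1.08 and 4.49 CPM in the controls and at 17.8, 18.7 and 13.6 CPM in the combination, a log2 fold change of 2.58 ± 0.55 with a DESeq2 adjusted p of 2.16e-04. H2-Eb1, a class II beta chain, was at 6.14 and 26.0 CPM and at 64.3, 66.5 and 45.8 CPM. H2-Ab1, the other classical beta chain, was at 7.60 and 35.1 CPM and at 84.8, 84.1 and 51.8 CPM, a log2 fold change of 1.79 ± 0.60. All 3 combination tumors were above both controls for these genes, and control replicate 3 was the lower control each time. H2-Ab1 ran from 1.04 without control replicate 3 to 3.25 without control replicate 5.

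The alpha chain gene H2-Aa was at 4.89 and 24.0 CPM in the controls and at 42.0, 59.0 and 6.02 CPM in the combination, where replicate 4 fell between the controls. Cd74, the invariant chain, was at 15.7 and 56.6 CPM and at 113, 109 and 64.2 CPM. The peptide exchange factor H2-DMa was at 10.3 and 16.4 CPM and at 22.4, 22.5 and 22.1 CPM, and its partner H2-DMb2 at 3.28 and 5.43 CPM and at 8.97, 10.8 and 5.88 CPM. Rfx5, a subunit of the complex that binds the X box, was not among the higher genes, at 30.6 and 30.0 CPM in the controls and at 26.8, 26.9 and 23.3 CPM. Without replicate 4, 9 genes of the list were nominally higher, beside 7.86% of all genes. The list's median was 0.85 without replicate 4 and 0.46 with it alone.

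Promoter sequence of H2-Eb1 and H2-DMb2 is shown because their promoters carry the CCAAT motif that lies in the Y box. The sequences are the 250 bases before the RefSeq start site in build GRCm38.p6, read 5′ to 3′ on the gene's strand, and capitals mark CCAAT or its reverse complement ATTGG. H2-Eb1 lies on the plus strand (chr17:34305617-34305866), with matches that begin at positions -59 and -35 from the start site. H2-DMb2 lies on the plus strand (chr17:34144999-34145248), with 1 match at -90.
H2-Eb1: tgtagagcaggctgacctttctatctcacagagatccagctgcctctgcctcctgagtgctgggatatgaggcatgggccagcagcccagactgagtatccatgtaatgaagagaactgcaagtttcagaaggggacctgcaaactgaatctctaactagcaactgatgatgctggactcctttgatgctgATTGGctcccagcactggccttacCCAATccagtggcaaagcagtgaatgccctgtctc
H2-DMb2: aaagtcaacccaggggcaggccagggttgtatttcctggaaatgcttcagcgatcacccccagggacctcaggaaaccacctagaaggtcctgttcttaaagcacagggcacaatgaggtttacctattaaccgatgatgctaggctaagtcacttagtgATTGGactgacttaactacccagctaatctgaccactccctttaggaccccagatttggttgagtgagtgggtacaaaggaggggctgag
CCAAT was searched on both strands and was found in 9 of 12 MHC class II promoters (75%), against 9314 of 27025 RefSeq promoters of that length (34.5%). The promoters were the first entry per symbol, and the chromosome that holds Cd74 was left out. The 12 are those that matched the 16 tested genes by symbol, without Cd74. A match describes the letters of the window only.

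MHC class I presentation, which shows peptides to CD8+ T cells, differed less in median. Of 23 genes 3 (13.0%) were nominally higher and none nominally lower, beside 6.98% and 3.12% of all genes. Their median was 0.17, with 0.08 without replicate 4 and 0.15 with it alone. H2-T23, which encodes the nonclassical molecule Qa-1, was at 41.7 and 23.3 CPM in the controls and at 66.2, 51.9 and 62.4 CPM in the combination. H2-Q7 was at 51.6 and 58.1 CPM and at 97.1, 66.7 and 119 CPM, and like its neighbors in the H2-Q family its reads may be shared with near-identical copies. B2m, the light chain of class I molecules, was at 253 and 260 CPM and at 292, 234 and 279 CPM, a log2 fold change of 0.07 ± 0.15. The peptide transporter gene Tap2 was at 133 and 114 CPM and at 139, 120 and 209 CPM. Both B2m and Tap2 overlapped between the groups.

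Genes of the type I interferon response stood in the other direction. Of 31 genes 5 (16.1%) were nominally lower and none nominally higher, beside 3.12% and 6.98% of all genes, with a median of -0.80 and no positive log2 fold change among the 31. Bst2, the tetherin that holds budding virus at the membrane, was at 138 and 109 CPM in the controls and at 84.1, 64.8 and 58.0 CPM in the combination, a log2 fold change of -0.84 ± 0.23 with a DESeq2 adjusted p of 0.0450. Rsad2, the antiviral enzyme viperin, was at 190 and 93.8 CPM and at 65.3, 55.5 and 42.3 CPM. The dynamin-like GTPase gene Mx2 was at 80.5 and 39.1 CPM and at 23.1, 24.5 and 12.4 CPM. Control replicate 3 was the higher control for each of these genes, and its summed type I interferon level of 4960 CPM was above the 1020 to 3760 CPM of the other 9 tumors. Isg20, an exonuclease, and Ifi44 did not overlap either, with log2 fold changes of -0.80 and -1.71.

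Single libraries set much of the size of this difference. Isg15, a ubiquitin-like modifier, was at 105 and 40.8 CPM in the controls and at 50.6, 39.8 and 17.7 CPM in the combination, so that the groups overlapped. The median of the list was -0.27 without control replicate 3 and -1.24 without control replicate 5. It was -0.41 without combination replicate 4 and -2.23 with that replicate alone. With that replicate left out, 4 genes were nominally lower, beside 4.53% of all genes. None of 18 interferon-inducible GTPases, which restrict intracellular pathogens, reached an unadjusted p under 0.05 in either direction in edgeR, and DESeq2 called none. Their median was -0.42 with all tumors, 0.07 without combination replicate 4, 0.14 without control replicate 3 and -2.52 with combination replicate 4 alone.

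The promoters of Rsad2 and Bst2 are shown because they hold the interferon-stimulated response element, the site of the factor complex activated by type I interferon. Capitals mark GAAA, any 2 bases and GAAA on either strand, in the 250 bases before the RefSeq start site in build GRCm38.p6, read 5′ to 3′ on the gene's strand. Rsad2 lies on the minus strand (chr12:26456453-26456702) with 1 match that begins at -120. Bst2 lies on the minus strand (chr8:71537473-71537722) with 2 overlapping matches that begin at -130 and -124.
Rsad2: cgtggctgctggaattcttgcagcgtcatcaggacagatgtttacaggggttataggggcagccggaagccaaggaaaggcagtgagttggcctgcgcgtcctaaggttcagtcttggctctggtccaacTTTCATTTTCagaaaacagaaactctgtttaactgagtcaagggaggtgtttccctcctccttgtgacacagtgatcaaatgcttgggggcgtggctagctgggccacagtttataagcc
Bst2: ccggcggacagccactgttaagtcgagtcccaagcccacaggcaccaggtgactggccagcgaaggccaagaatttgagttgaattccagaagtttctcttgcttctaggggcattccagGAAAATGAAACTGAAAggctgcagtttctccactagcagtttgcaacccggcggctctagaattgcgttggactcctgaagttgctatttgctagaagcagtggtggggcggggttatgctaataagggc
This motif was found in 10 of 23 type I interferon promoters (43.5%), against 821 of 27025 promoters (3.04%). The 23 are those that matched the 31 tested genes by symbol in the same promoter set. A match describes the letters of the window and no site of binding in these tumors.

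The interferon gamma and interleukin-12 axis, which links dendritic cells to type 1 T cells, varied with single libraries. Of 25 genes 3 (12%) were nominally higher and 1 (4%) nominally lower, beside 6.98% and 3.12% of all genes. Their median was -0.01, with 0.57 without combination replicate 4, 0.56 without control replicate 3 and -1.24 with combination replicate 4 alone. Without combination replicate 4, 6 were nominally higher and none nominally lower, beside 7.86% and 4.53% of all genes. Irf8, a transcription factor of dendritic cells and macrophages, was at 16.8 and 17.8 CPM in the controls and at 28.9, 30.1 and 21.7 CPM in the combination. Socs1, a feedback inhibitor of cytokine receptors, was at 13.7 and 9.75 CPM and at 25.5, 14.7 and 120 CPM, so its log2 fold change of 2.19 was 0.79 without replicate 4. Il18rap, a chain of the interleukin-18 receptor, was at 45.0 and 17.0 CPM and at 10.1, 14.9 and 9.22 CPM. Among 18 chemokines and receptors that attract T cells none reached an unadjusted p under 0.05 in edgeR and DESeq2 called none. Without replicate 4, 6 were nominally higher, beside 7.86% of all genes. Their median was 0.50, with 0.87 without replicate 4, -1.71 with it alone and -0.05 without control replicate 5.

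Dendritic cell genes were higher for several members. Of 18 genes 4 (22.2%) were nominally higher and 1 (5.56%) nominally lower, beside 6.98% and 3.12% of all genes. Their median was 0.75, with 0.93 without replicate 4 and -0.09 with it alone. Flt3, the cytokine receptor on which dendritic cell development depends, was at 1.97 and 1.57 CPM in the controls and at 4.11, 5.18 and 3.04 CPM in the combination, a log2 fold change of 1.21 ± 0.33 with a DESeq2 adjusted p of 0.00604. Batf3, a factor of the cross-presenting lineage, was at 0.625 and 0.556 CPM and at 1.78, 1.37 and 1.13 CPM. Zbtb46, a factor of classical dendritic cells that endothelium also expresses, was at 24.0 and 25.0 CPM and at 35.3, 40.2 and 48.6 CPM. These 3 genes did not overlap between the groups, and the lower gene was Bst2, a marker of plasmacytoid cells that belongs to the interferon genes above. Xcr1, the chemokine receptor of cross-presenting cells, overlapped through replicate 4, at 0.455 and 1.08 CPM in the controls and at 2.25, 3.13 and 0.324 CPM in the combination.

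Macrophage and monocyte genes had 3 of 27 (11.1%) nominally higher and 2 (7.41%) nominally lower, beside 6.98% and 3.12% of all genes. Their median of -0.41 was -0.05 without combination replicate 4, -0.11 without control replicate 3, -0.08 without control replicate 5 and -1.76 with combination replicate 4 alone. Cd163, the scavenger receptor for hemoglobin, was at 1.34 and 1.54 CPM in the controls and at 9.44, 6.85 and 4.5 CPM in the combination. C1qc, a chain of complement C1q made by macrophages, was at 72.4 and 77.2 CPM and at 104, 103 and 92.5 CPM. In contrast, the monocyte chemokine gene Ccl2 was at 162 and 89.6 CPM in the controls and at 66.0, 70.7 and 15.9 CPM in the combination. Its relative Ccl7 was at 47.0 and 10.6 CPM and at 10.3, 11.4 and 3.02 CPM, where combination replicate 3 lay between the controls.

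None of 21 neutrophil genes reached an unadjusted p under 0.05 in edgeR, and DESeq2 called none. Their median of -0.71 turned to 1.88 without control replicate 3, the control with the higher mean log2 CPM of the list (2.15 beside -0.92), and was -1.55 without control replicate 5 and -3.63 with combination replicate 4 alone. Among 11 mast cell and eosinophil genes none reached that level in edgeR and DESeq2 called none, although all 11 were positive with a median of 1.06, which was 0.46 with combination replicate 4 alone and 0.49 without control replicate 5. The median of 21 B and plasma cell genes was 0.77 with 15 positive, 0.85 without combination replicate 4 and 0.12 with that replicate alone. With that replicate left out, 4 were nominally higher, beside 7.86% of all genes. Of the 21 genes only Cd79a, a signaling chain of the B cell receptor, was nominally lower with all tumors. It was at 2.86 and 3.23 CPM in the controls and at 0.977, 1.64 and 1.01 CPM in the combination.

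Of 22 endothelial genes 9 (40.9%) were nominally higher and none nominally lower, beside 6.98% and 3.12% of all genes. Their median was 1.05, with 0.99 without replicate 4 and 0.21 with replicate 4 alone. Egfl7, a secreted factor of vessel sprouts, was at 10.3 and 7.20 CPM in the controls and at 16.2, 17.8 and 22.4 CPM in the combination, a log2 fold change of 1.10 ± 0.29. Nos3, the endothelial nitric oxide synthase, was at 2.77 and 2.74 CPM and at 6.97, 7.35 and 11.1 CPM. Sox18, a factor of vessel and lymphatic development, was at 2.26 and 1.37 CPM and at 6.71, 5.74 and 15.8 CPM. Cldn5, a tight junction protein of endothelium, was at 0.923 and 0.941 CPM and at 2.55, 3.18 and 2.18 CPM. These 4 genes did not overlap. Pecam1, the general marker of endothelium, did overlap at 45.9 and 39.5 CPM in the controls and 61.1, 95.3 and 19.2 CPM in the combination.

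Leukocytes leave vessels through selectins and integrins, and 1 of 22 leukocyte adhesion genes (4.55%) was nominally higher, below the 6.98% of all genes. Their median was 0.40, with 0.66 without replicate 4 and -0.79 with it alone. That gene was Selplg, the selectin ligand of leukocytes, at 38.0 and 23.6 CPM in the controls and at 67.4, 68 and 60.0 CPM in the combination, a log2 fold change of 1.08 ± 0.27 with a DESeq2 adjusted p of 0.00651. Icam1, the endothelial ligand of leukocyte integrins, overlapped at 27.3 and 22 CPM in the controls and 39.0, 41.1 and 15.6 CPM in the combination. Of 31 fibroblast and collagen genes 2 (6.45%) were nominally higher and 1 (3.23%) nominally lower, near the share of all genes, with a median of 0.28 that was 0.36 without replicate 4 and -0.56 with it alone. The higher ones were Col1a1 and Col5a1 and the lower one was Fgf7. Col1a1, the main chain of fibrillar collagen, was at 563 and 410 CPM in the controls and at 927, 633 and 1500 CPM in the combination, with replicate 4 the highest.

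**Figure D4:**
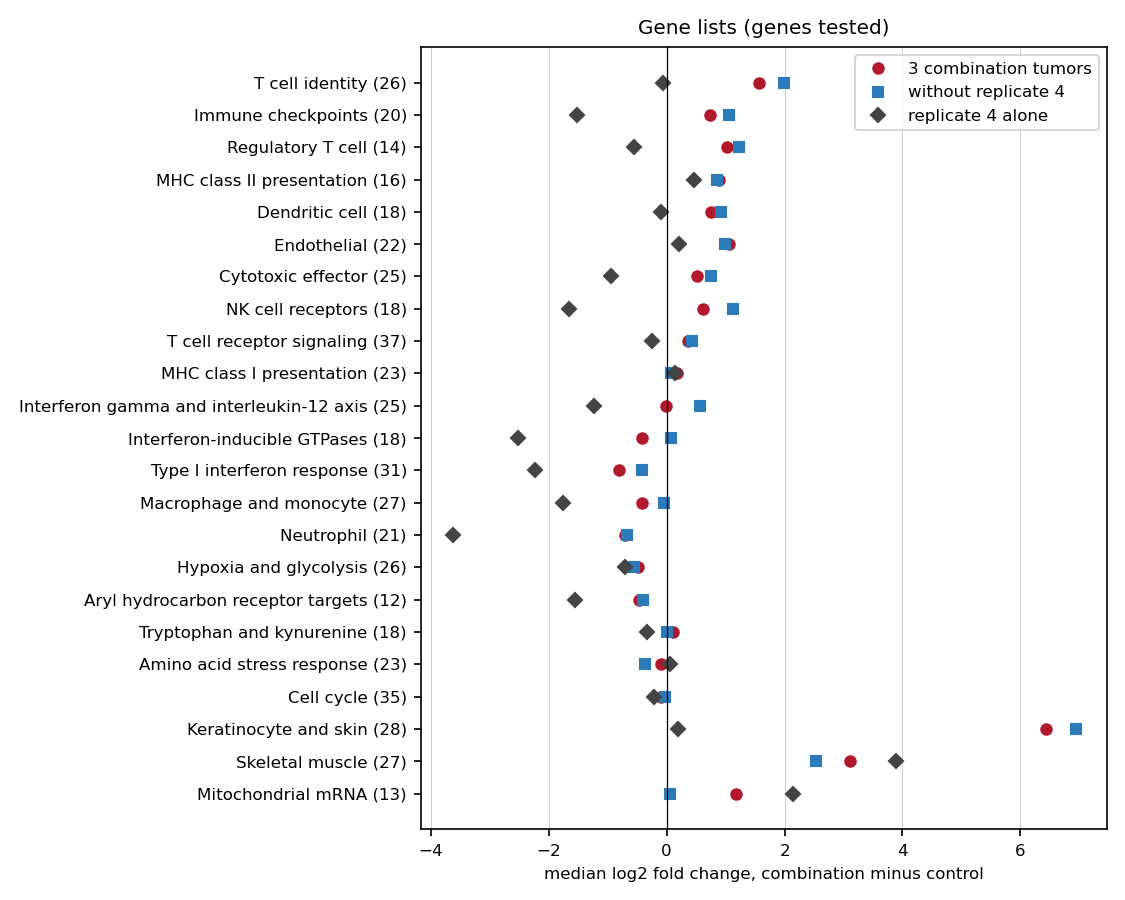
Median log2 fold change of the combination against the control group over the tested members of 23 gene lists, with the number tested in parentheses, for all 3 combination tumors (circles), without replicate 4 (squares) and with replicate 4 alone (diamonds). T cell identity genes had medians of 1.57, 1.99 and -0.07, type I interferon genes -0.80, -0.41 and -2.23, and keratinocyte genes 6.43, 6.94 and 0.19.

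In the pathway that YH29407 targets, mRNA levels of the enzymes differed little. Of 18 tryptophan and kynurenine genes tested 1 (5.56%) was nominally higher and none nominally lower, beside 6.98% and 3.12% of all genes. Their median was 0.10, the value over all genes. Ido1 (chromosome 8, 24584133 to 24596952) was at 0.540 and 1.43 CPM in the controls and at 1.17, 0.814 and 0.755 CPM in the combination, a log2 fold change of -0.11 ± 0.66. Its paralog Ido2 was at 0.568 and 0.784 CPM and at 0.571, 0.393 and 0.863 CPM. Both genes overlapped between the groups, and both were low in all of these tumors, at most 1.43 CPM. The gene that was higher was Afmid, the formamidase that releases kynurenine, at 9.23 and 9.28 CPM in the controls and at 16.3, 13.4 and 20.9 CPM in the combination. Kmo, which hydroxylates kynurenine, was at 1.75 and 2.35 CPM and at 4.69, 7.25 and 1.29 CPM. Il4i1, an amino acid oxidase that yields AhR ligands from tryptophan, was at 1.73 and 1.47 CPM and at 2.80, 5.84 and 4.55 CPM, a log2 fold change of 1.46 ± 1.22.

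The receptor for kynurenine was lower. Of 12 AhR and target genes tested 2 (16.7%) were nominally lower and none nominally higher, beside 3.12% and 6.98% of all genes. Their median was -0.47, with -0.40 without replicate 4 and -1.55 with it alone. Ahr itself (chromosome 12, 35497979 to 35534989) was at 53.8 and 73.6 CPM in the controls and at 29.6, 29.0 and 13.9 CPM in the combination, a log2 fold change of -1.40 ± 0.33 with a DESeq2 adjusted p of 0.00826. Tiparp, a target that feeds back on AhR, was at 140 and 191 CPM and at 54.8, 87.6 and 19.6 CPM, a log2 fold change of -1.61 ± 0.52. All 3 combination tumors were below both controls for both genes, and replicate 4 was the lowest. Nqo1, a quinone reductase that AhR and NRF2 induce, was at 10.1 and 8.79 CPM and at 3.41, 5.60 and 2.64 CPM.

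Loss of tryptophan can activate the amino acid stress response through GCN2 and ATF4. Of 23 such genes 1 (4.35%) was nominally higher and 4 (17.4%) nominally lower, beside 6.98% and 3.12% of all genes. Their median was -0.10, with -0.37 without replicate 4 and 0.06 with it alone. Without replicate 4, 8 were nominally lower, beside 4.53% of all genes. Aldh1l2, a mitochondrial folate enzyme, was at 117 and 159 CPM in the controls and at 69.5, 77.6 and 85.5 CPM in the combination. Its partner Mthfd2 was at 151 and 154 CPM and at 108, 114 and 66.3 CPM, and the serine synthesis gene Psat1 at 105 and 122 CPM and at 61.8, 69.3 and 96.4 CPM. These 3 did not overlap between the groups. Vldlr, described above, was the other lower gene. The higher gene was Atf5, at 25.3 and 19.6 CPM in the controls and at 39.4, 23.8 and 135 CPM in the combination, where replicate 4 alone was far above the rest.

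Hypoxia and glycolysis genes were lower as far as they differed. Of 26 genes 5 (19.2%) were nominally lower and none nominally higher, beside 3.12% and 6.98% of all genes. Their median was -0.49, with -0.55 without replicate 4, -0.70 with it alone and -0.21 without control replicate 5. P4ha1, a collagen prolyl hydroxylase induced by low oxygen, was at 193 and 285 CPM in the controls and at 124, 146 and 106 CPM in the combination, a log2 fold change of -0.93 ± 0.24. Pdk1, the kinase that keeps pyruvate out of mitochondria, was at 71.6 and 102 CPM and at 35.2, 46.6 and 33.0 CPM. The glycolytic enzyme gene Pfkl was at 175 and 283 CPM and at 115, 113 and 161 CPM. Bnip3, a mitophagy receptor induced by HIF-1, was at 70.4 and 126 CPM and at 33.4, 45.0 and 22.7 CPM. These 4 genes were below both controls in every combination tumor, and the gap between the controls themselves was wide.

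Proliferation genes showed little difference. With a median of -0.09, 1 of 35 cell cycle genes (2.86%) was nominally higher and none nominally lower, beside 6.98% and 3.12% of all genes. That gene was Ccnd1, cyclin D1, at 134 and 110 CPM in the controls and at 200, 166 and 280 CPM in the combination. Of 26 cell death genes 3 (11.5%) were nominally higher, beside the same 6.98%. Among them was Ripk3, the kinase of necroptosis, at 5.43 and 4.19 CPM in the controls and at 8.29, 9.27 and 8.87 CPM in the combination. Fadd, the adaptor of death receptors, was at 4.28 and 3.38 CPM and at 9.15, 6.17 and 27.7 CPM, and replicate 4 raised its log2 fold change from 1.02 to 1.91. Of 31 Toll-like receptor signaling genes 3 (9.68%) were nominally higher and 2 (6.45%) nominally lower, beside 6.98% and 3.12% of all genes. Their median was -0.03, with 0.18 without replicate 4 and -1.28 with it alone. The common adaptor gene Myd88 was at 49.8 and 38.8 CPM in the controls and at 60.3, 54.0 and 83.0 CPM in the combination. Of 23 immediate early genes 2 (8.70%) were nominally higher, near the 6.98% of all genes. They were led by Egr3, a factor induced by receptor signals in lymphocytes and neurons, at 2.47 and 3.39 CPM and at 8.15, 4.70 and 11.9 CPM.

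A list of 17 genes was built around the study's account of these tumors, so their direction here is not independent evidence. Of the 17, 5 (29.4%) were nominally higher and none nominally lower, beside 6.98% and 3.12% of all genes. Their median was 1.09, with 1.49 without replicate 4 and 0.00 with replicate 4 alone. Without replicate 4, 10 were nominally higher, beside 7.86% of all genes. For NFATC2, HLA-DQB1 (followed here as H2-Ab1) and granzymes A and B the study reported higher levels than with YH29407 alone. That is a comparison other than the one here. For T cell and antigen-presentation pathways the study also described an increase over the control group and over each agent alone. The values of the 17 genes stand above in the paragraphs on T cells, effectors, checkpoints, antigen presentation, adhesion, tryptophan and Toll-like receptor signaling.

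Keratinocyte and skeletal muscle genes had larger medians than any immune list. Of 28 keratinocyte and skin genes tested 21 (75.0%) were nominally higher and none nominally lower, beside 6.98% and 3.12% of all genes. Their median was 6.43 and all 28 were positive. A gene with no count in the controls could pass the filter only through treated tumors, so its sign could not be negative. Krt10, a keratin of differentiated epidermis, was at 0.327 and 0.413 CPM in the controls and at 88.0, 14.1 and 0.432 CPM in the combination. Krt14, a keratin of basal epidermis, was at 0.327 and 0 CPM in the controls and at 186, 67.7 and 0.342 CPM in the combination. Replicates 2 and 3 were far above the controls, while replicate 4 was at their level, with a list median of 0.19 on its own. Flg, filaggrin of the cornified layer, was at 1.97 and 0.456 CPM and at 532, 53.7 and 2.12 CPM. None of the 7 hair follicle and sebaceous genes tested, of 27 listed, reached an unadjusted p under 0.05 in edgeR, DESeq2 called none, and their median was 0.12.

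Skeletal muscle genes were present in all 3 combination tumors. Of 27 genes 18 (66.7%) were nominally higher and 1 (3.70%) nominally lower, beside 6.98% and 3.12% of all genes. Their median was 3.11, with 2.53 without replicate 4 and 3.89 with it alone. Acta1, the skeletal actin, was at 0.142 and 0.371 CPM in the controls and at 15.7, 9.57 and 45.0 CPM in the combination. Myh4, a fast myosin heavy chain, was at 0.213 and 0.356 CPM and at 11.1, 5.85 and 95.6 CPM. Muscle genes, like several immune lists above, thus had a higher median in the combination than in the control group. With replicate 4 alone the muscle median was 3.89 and the T cell identity median was -0.07. Summed muscle genes were at 646 and 114 CPM in the aPD-1 tumors and at 59.3, 203 and 71.6 CPM in the YH29407 tumors. The part of muscle in the immune results was not tested. Of 12 nerve and Schwann cell genes tested, with a median of 1.07, 4 (33.3%) were nominally higher, beside 6.98% of all genes. Among them was the growth cone gene Gap43, at 0.170 and 0.114 CPM in the controls and at 1.40, 0.800 and 3.24 CPM in the combination. Of 11 adipocyte genes tested, with a median of 0.77, 3 (27.3%) were nominally higher, beside the same 6.98%. The summed level of the adipocyte list was 102 and 79.4 CPM in the controls and 137, 155 and 118 CPM in the combination. In replicate 4, 423 olfactory and vomeronasal genes, which encode receptors of the nasal epithelium, summed to 897 CPM, against 88.5 to 363 CPM in the other 9 tumors.

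Tumors given 1 agent show where the combination differed from each. All comparisons against the control group share the same 2 control tumors. The test of the difference is that of the combination against the aPD-1 tumors and against the YH29407 tumors in the same fit, and no gene passed an adjusted p of 0.05 in either (smallest 0.0963 and 0.0622). Of 26 T cell identity genes, 8 were nominally higher than with aPD-1 (5.76% of all genes) and 16 were nominally higher than with YH29407 (10.6% of all genes), and none was lower in either. Their median log2 fold change was 1.06 against aPD-1 and 1.68 against YH29407. Against the controls the same median was 0.43 for aPD-1, -0.13 for YH29407 and 1.57 for the combination. The summed level of these genes was 88.4 and 98.3 CPM in the aPD-1 tumors and 35.5, 104 and 46.3 CPM in the YH29407 tumors. Combination replicates 2 and 3 were at 185 and 190 CPM. Combination replicate 4 was at 99.4 CPM, below YH29407 replicate 3.

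For Lat, the aPD-1 tumors were at 1.42 and 1.32 CPM and the YH29407 tumors at 0.940, 2.08 and 0.693 CPM, all below the 4.56 CPM of the lowest combination tumor, and the combination was higher by 2.08 ± 0.49 and 2.22 ± 0.42 on the log2 scale. For Cd6, they were at 2.23 and 2.44 CPM and at 1.06, 2.04 and 0.880 CPM, and the combination was higher by 1.48 ± 0.41 and 2.3 ± 0.37. For Ciita, they were at 3.54 and 3.22 CPM and at 3.91, 3.13 and 3.06 CPM, differences of 2.3 ± 0.54 and 2.31 ± 0.46. Lat and Cd6 were chosen for their level in the combination, so these values are a description, and Pear1, chosen by the same rule, differed from YH29407 by 0.07. MHC class II genes had a median of 0.50 against aPD-1, with 1 of 16 (6.25%) nominally higher beside 5.76% of all genes. Against YH29407 their median was 0.54, with 5 nominally higher (31.2%, beside 10.6% of all genes) and 1 nominally lower. Of 18 dendritic cell genes 9 were nominally higher than with aPD-1, beside the same 5.76%. Endothelial genes had medians against the controls of 0.64 with aPD-1 and 0.74 with YH29407, and of 0.04 for the combination against YH29407. For Selplg, the aPD-1 tumors were at 21.7 and 32.0 CPM and the YH29407 tumors at 26.8, 32.4 and 27.5 CPM, within or near the control range.

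**Figure D5:**
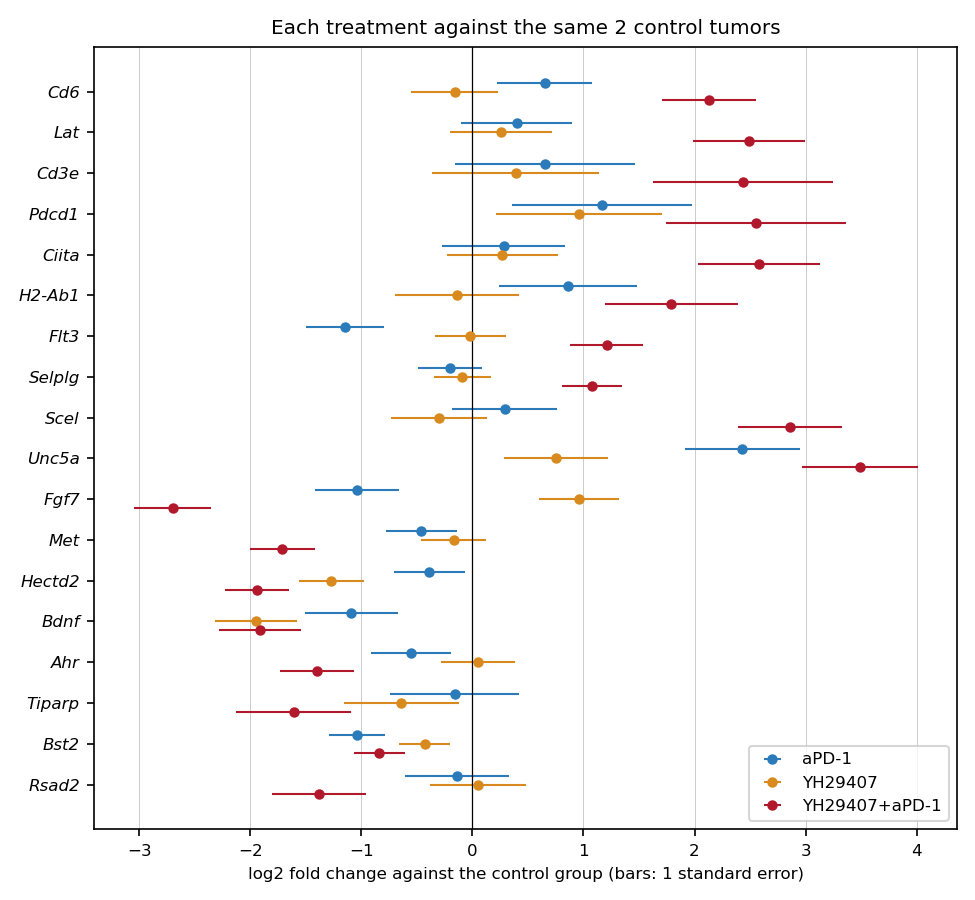
Log2 fold change against the control group, with bars of 1 standard error, of 18 genes for aPD-1, YH29407 and the combination, all against the same 2 control tumors. Cd6, Lat, Ciita and Selplg lie below 1 with either agent alone and above 1 with the combination, Bdnf lies at -1.95 with YH29407 and -1.91 with the combination, and Bst2 has its lowest point with aPD-1 at -1.04.

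Fgf7 differed between the agents, at 5.74 and 7.03 CPM with aPD-1 and 23.7, 20.5 and 32.3 CPM with YH29407. The combination was below both, with log2 differences of -1.66 ± 0.35 and -3.66 ± 0.35, and the difference from YH29407 had the smallest adjusted p of that contrast in edgeR, 0.0622. Met was at 70.7 and 73.0 CPM in the aPD-1 tumors, while YH29407 tumors were at 74.2, 119 and 69.3 CPM, above the combination in each tumor. Ahr was at 37.6 and 49.3 CPM in the aPD-1 tumors, while YH29407 tumors were at 58.5, 69.4 and 69.6 CPM, and the combination lay below them with log2 differences of -0.85 ± 0.33 and -1.45 ± 0.30. Ido1 was at 0.425 and 0.905 CPM in the aPD-1 tumors but at 7.49, 1.78 and 5.82 CPM in those given YH29407, so that all 3 YH29407 tumors were above all 3 combination tumors, a difference of -2.46 ± 0.61 with an edgeR adjusted p of 0.209.

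Some differences from the controls were also seen with a single agent. Bdnf had a log2 fold change of -1.95 for YH29407, -1.91 for the combination and 0.04 between them. Bst2 was at 52.9 and 67.4 CPM in the aPD-1 tumors, a log2 fold change of -1.04, and the combination differed from aPD-1 by 0.20 ± 0.23. The type I interferon list had a median of -0.87 with aPD-1 alone, beside -0.80 in the combination and -0.29 with YH29407, and of -0.02 between the combination and aPD-1. Rsad2 was at 76.4 and 181 CPM in the aPD-1 tumors and at 138, 188 and 115 CPM in those given YH29407, and the combination differed from them by -1.24 ± 0.42 and -1.43 ± 0.39 on the log2 scale. Skeletal muscle genes had medians of 1.38 with aPD-1 and 1.18 with YH29407 against the controls, whereas keratinocyte genes had medians of -0.37 and 0.00, beside 6.43 in the combination.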

How the data were processed

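RNA was extracted from formalin-fixed, paraffin-embedded MC38 tumors and sequenced as paired-end reads after SureSelect capture. The submitters' processing notes name HISAT2, StringTie and the mm10 build. The authors deposited, for each gene and tumor, a read count and the FPKM and TPM values computed from the same reads. Deposited counts were used for the tests, deposited FPKM values for the 2 limma alternatives, and the TPM values were not used. No strand setting was given in the sources used here, so reads of overlapping and antisense genes cannot be told apart.

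Counts of all 10 libraries were filtered by group (filterByExpr), scaled by TMM and fitted with edgeR 4.0.16 in R 4.3.3, with 1 term per group. The fit's common dispersion came to 0.252. Combination replicates 2, 3 and 4 were compared with control replicates 3 and 5 by the quasi-likelihood test, with Benjamini-Hochberg adjustment over 21523 genes and a threshold of 0.05. SE denotes the standard error of a log2 fold change from that fit, and CPM was computed from counts and TMM-scaled totals. An exact permutation test of 3 against 2 tumors cannot go below p = 0.2 and was not used. DESeq2 1.42.0 and limma 3.58.1 served as alternatives. Of 45777 genes, 12616 had no count.

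Genes followed up by tumor were the 12 of smallest unadjusted p in each direction that met the following rule. They differed by at least 1 on the log2 scale, with a mean of at least 1 CPM and no overlap of the 5 libraries. They had no predicted-gene, microRNA or pseudogene symbol. Without combination replicate 4 they kept the direction, with an unadjusted p under 0.05 and a change of at least 1 on the log2 scale. Named besides were the 17 genes listed around the study's account, up to 4 members of each list by unadjusted p, and tissue markers. Gm41396, Xcr1, Pecam1, Ido2, Kmo, Il4i1, Rfx5, H2-Aa, Cd74, H2-DMb2, Ifi44, Isg15, Foxp3, Tigit, Ppp3cb, Ccl2, Atf5 and Bnip3 were chosen after their values were seen, as were the genes whose promoters are shown. The members and lists were chosen with earlier results of these data known. Promoters are RefSeq sequences of build GRCm38.p6, cut to 250 bases before the start. The first entry per symbol was used, and the chromosome that holds Cd74 was left out. List medians under a left-out library are over the members that passed the filter on all libraries. The closing count of list medians, and the medians printed beside it, instead used the members that passed each fit's own filter. The procedure was tested on simulated counts. One list member that met the naming rule is not reported here.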

Additional observations from a re-analysis of the deposited data

How the results depend on the processing

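Most directions held, and the number of genes past the threshold depended on the tool. Genes past an adjusted p of 0.05, 0 in edgeR, were 427 with DESeq2 on the 10 libraries, 393 with DESeq2 on the 5 libraries, 2184 with limma-voom and sample quality weights, 2 and 1 with limma on log2(FPKM + 1) and log2(FPKM + 0.1), and 1 without a filter on low counts. At an unadjusted p under 0.05, counts of higher and of lower genes were 994 and 252 with edgeR on the 5 libraries, 3128 and 3638 with limma-voom, 2592 higher with DESeq2 on the 10 libraries and 412 lower with DESeq2 on the 5. Leaving out each replicate in turn gave 0 to 2 genes past the adjusted threshold, 565 to 3009 higher genes and 255 to 2433 lower genes. The lowest counts of higher and of lower genes came without control replicate 5 and the highest without combination replicate 3. With replicate 4 as the only combination library, an alternative chosen after seeing the data that assumes it varies like the other groups, 7930 genes passed, and without adjustment 4618 were higher and 6204 lower. In that setting Lck (-0.25), Icam1 (-0.78), Gzma (-2.99), Gzmb (-2.55), Cd4 (-0.49) and Ifng (-0.44) turned negative. Gzmb also did so on log2(FPKM + 1) (-0.12), without control replicate 5 (-0.00) and without combination replicate 3 (-0.22), and Ido1 turned positive without control replicate 5 (0.73) and without combination replicate 4 (0.03). Over all left-out replicates Gzmb ran from -0.22 to 0.79 and Ido1 from -0.68 to 0.73. The cause was not tested. Of the other gene values, 349 kept direction and side of the threshold and 50 passed it where edgeR on all libraries had not. Of the list medians 280 moved by less than the spread and 40 moved more. The spread is the standard deviation of the list's mean log2 CPM within the groups, and it includes combination replicate 4. A move within it could change the sign, so this count does not measure whether directions held. Without combination replicate 3 the median was -0.15 for NK cell receptors and -0.04 for leukocyte adhesion, both within the spread. No paired analysis was possible because the labels number the tumors within each group and give no pairing between groups.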
